A study of Mus musculus with 11 samples.

Results

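Myoglobin, the creatine kinases and the genes that bring fuel to heart muscle were followed across 5 kinds of mouse cells as a set of 10 genes, Mb, Ckm, Ckmt2, Ckb, Fabp3, Cd36, Lpl, Pgam2, Ppargc1a and Esrra. All probe sets that the annotation of the array assigns to 1 of these symbols alone were taken, which gave 21 of 45101 probe sets. The 10 genes stand among 18193 genes that 34945 probe sets with a single symbol measured. Of the 10 genes, 7 had more than 1 probe set, and each gene is represented by its probe set of highest average level on the 11 arrays unless another is named. Values are log2 expression values from RMA, a method that summarises the probes of a probe set after normalizing between arrays, so a difference of 1 is a 2-fold difference. Levels are set side by side within a probe set only.

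Total RNA came from mice or cells of a mixed background of C57/Bl and BlackSwiss. There were 3 arrays each of pluripotent cells reprogrammed from myocytes of the ventricle (ViPSC), of pluripotent cells reprogrammed from fibroblasts of the tail tip (TiPSC) and of embryonic stem cells labelled as genetically matched (ESC). The cells of origin, myocytes (VM) and fibroblasts (TTF) taken on postnatal day 1, were hybridised to 1 array each. All pluripotent cells were undifferentiated, grew on irradiated mouse embryonic fibroblasts with serum and LIF, and were separated from these feeders by plating for 45 minutes before RNA extraction. Reprogramming factors, and whether a group is 1 line or several, are not given in the sources used here. No label says that the 3 arrays of a group are separate cultures, so p-values measure only the spread between these arrays. With 1 array, VM and TTF values have no replicate check and carry no test.

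Myoglobin binds oxygen in the cytoplasm of heart and oxidative skeletal muscle, and creatine kinases move phosphate between ATP and creatine, in the cytosol for the M and B isoenzymes and between the mitochondrial membranes for the product of Ckmt2. The heart draws most of its fuel from fatty acids, which lipoprotein lipase frees from circulating triglyceride at the capillary wall, CD36 carries across the plasma membrane and the binding protein of Fabp3 holds in the cytosol. The coactivator encoded by Ppargc1a and the estrogen-related receptor encoded by Esrra drive genes of mitochondria and fatty acid oxidation.

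The labels fitted the marker genes of the cells. All 11 cardiomyocyte markers exceeded TTF by 2 log2 units or more in VM, with a median level of 14.22 against 3.96. The pluripotency markers had a median of 4.09 in VM and 3.95 in TTF, against 12.61 to 12.99 on the pluripotent arrays. The fibroblast and feeder markers had a median of 13.59 in TTF and 11.06 in VM. VM also carried markers of other cells of the ventricle: all 10 endothelial markers were at least 2 units above TTF, with Cdh5 at 11.61 and Emcn at 10.91, and fibroblast markers were present, with Col3a1 at 13.12 and Dcn at 11.62 while Thy1 was at 5.55. Of 12 skeletal muscle markers, 0 were raised by 2 units in VM. Their median there was 3.61, with Myod1 at 3.82 and Myog at 4.07, and the highest were Mylpf at 5.96 and Tnni2 at 5.47, against 5.52 and 4.17 in TTF. Adipoq, the defining adipocyte hormone, was at 2.95, although Cidea, 1 of 7 measured adipocyte markers, was at 9.39. In such bulk RNA, fewer cells of a type and less RNA per cell cannot be told apart. The values of all 11 arrays lay between 2.43 and 15.14, the medians of the arrays between 4.67 and 4.78, and arrays of a group correlated across genes at 0.984 to 0.998.

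In VM, 8 of the 10 genes exceeded their TTF level by 2 log2 units or more, as did 4.68% of all genes, and 0 were lower by as much, against 4.62% of all genes. The median difference of the 10 genes was 6.57, beside -0.02 over all genes. VM minus TTF of the median level over genes was -0.11, and centring the arrays raises each difference by the size of that gap. VM had the highest of the 5 group levels for 9 of the 10 genes, beside 25.1% of all genes, and Ckb was the exception. In the pluripotent cells Ckmt2, Cd36 and Ppargc1a sat near the lowest values of the table, while Ckb and Fabp3 were above their TTF level on every array.

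**Figure D1:**
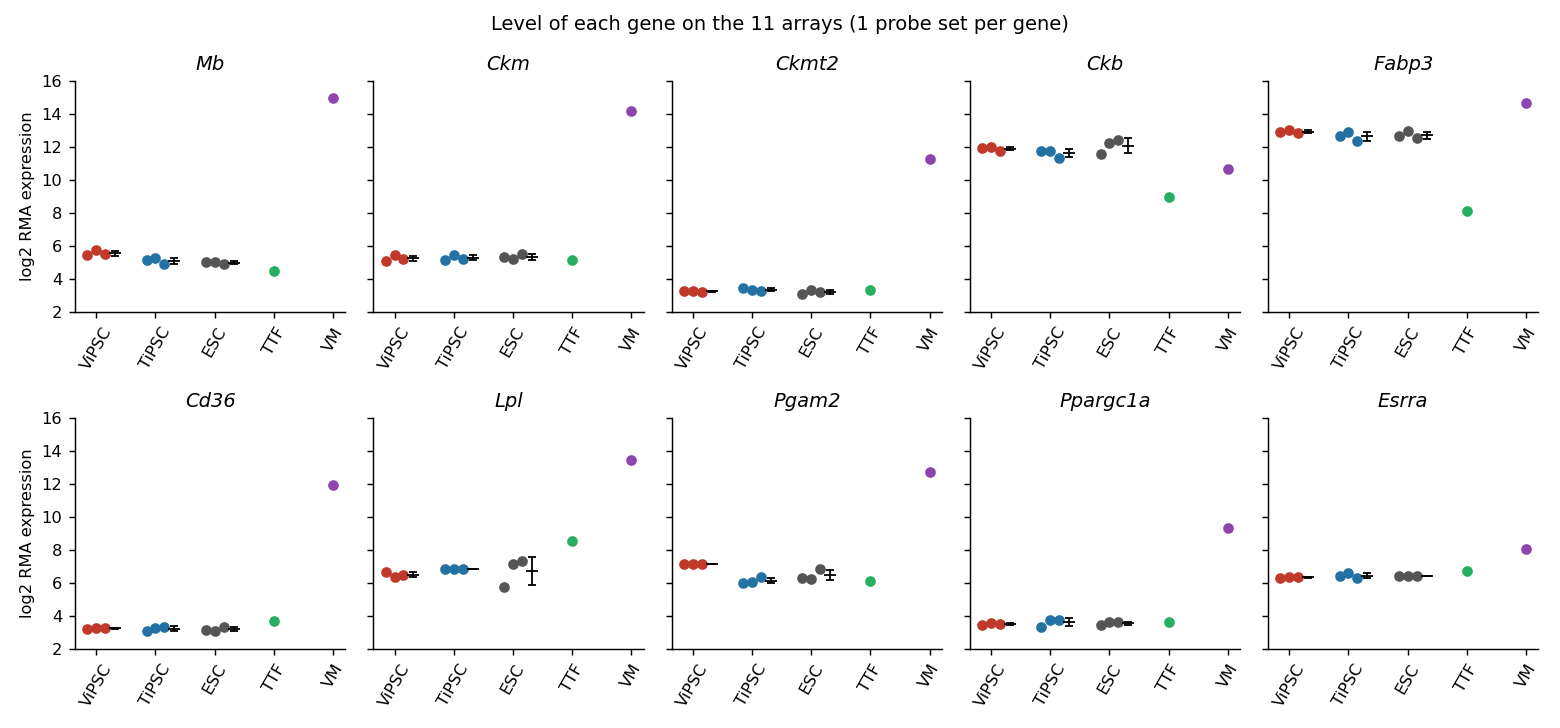
Log2 RMA expression of the 10 genes (vertical axes) on each of the 11 arrays by group (horizontal axes), 1 point per array, with bars for the mean and SD of the 3 arrays of ViPSC, TiPSC and ESC. VM is the highest group for every gene but Ckb, and Ckb and Fabp3 are above TTF on all 9 pluripotent arrays.

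Mb, which encodes myoglobin, was high in VM alone. Its level was 15.00 in VM, close to the highest value of the table, against 4.48 in TTF, a level below that of the median gene. The measured difference was 10.52 on this scale, and since RMA narrows differences near background no fold is given. The ViPSC arrays read 5.44, 5.75 and 5.50, the TiPSC arrays 5.16, 5.29 and 4.92, and the ESC arrays 5.04, 5.04 and 4.91. All 9 pluripotent arrays were thus above TTF and far below VM, and every ViPSC array was above every TiPSC and ESC array. A second Mb probe set, 1422420_at, did not see the high VM level: it read 4.22 in VM and 4.31 in TTF, and 4.22 to 4.75 on the pluripotent arrays. The high level in VM therefore rests on probe set 1451203_at.

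Among the other genes of oxygen handling, 1 of 6 measured was at least 2 units higher in VM than in TTF. It was Epas1, a transcription factor of the oxygen response, at 11.55 in VM and 5.76 in TTF. The globins of other tissues were low in VM: Cygb was at 5.71, Ngb at 5.07 and Hba-a1, an alpha chain of haemoglobin, at 3.16, while the red cell enzyme gene Alas2 was at 9.57.

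Ckm and Ckmt2, the muscle-type cytosolic and the sarcomeric mitochondrial creatine kinase, were high in VM alone. Ckm was at 14.15 in VM against 5.17 in TTF, a difference of 8.98. It lay between 5.12 and 5.55 on the pluripotent arrays. Ckmt2 was at 11.28 in VM against 3.34 in TTF, a difference of 7.94. It lay between 3.09 and 3.48 on the pluripotent arrays. The pluripotent arrays of both genes lay close to TTF, although all 3 ESC arrays of Ckm were above TTF and all 3 ViPSC arrays of Ckmt2 below it. The second Ckm probe set, 1444643_at, had the same order with a smaller step, from 3.96 in TTF to 6.29 in VM.

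Ckb, the brain-type creatine kinase of many growing cells, was highest in the pluripotent cells. Its level was 8.97 in TTF and 10.67 in VM, a difference of 1.70. It was 11.93, 12.02 and 11.79 in ViPSC, 11.79, 11.75 and 11.36 in TiPSC, and 11.55, 12.24 and 12.42 in ESC. All pluripotent arrays were above both source cells, with VM minus the ViPSC mean at -1.25 and TTF minus the TiPSC mean at -2.66. Between VM and ViPSC, Ckm was 8.90 and Ckmt2 8.02 higher in VM, while Ckb was 1.25 lower there and still above 93.4% of genes. Ckmt1, the mitochondrial creatine kinase of brain and gut, was likewise higher in pluripotent than in source cells, with means of 6.47 in ViPSC, 6.65 in TiPSC and 5.92 in ESC, against 4.12 in TTF and 4.47 in VM.

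The remaining genes of creatine and adenylate phosphotransfer did not follow Ckm. Of 7 measured genes, 0 exceeded TTF by 2 units or more in VM, and Ak4, a mitochondrial adenylate kinase, was lower, at 7.04 in VM and 9.09 in TTF. The creatine transporter gene Slc6a8 was at 10.04 and 9.37.

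Like Ckb, Fabp3, the heart-type fatty acid binding protein, was high in the pluripotent cells as well as in VM. It read 14.66 in VM and 8.12 in TTF. Its levels were 12.93, 13.01 and 12.87 in ViPSC, 12.65, 12.93 and 12.36 in TiPSC, and 12.66, 12.95 and 12.54 in ESC. The pluripotent arrays all lay between the source cells and nearer to VM, which exceeded the ViPSC mean by 1.72, while TTF minus the TiPSC mean was -4.52. The second Fabp3 probe set, 1444844_at, had a narrower span, with 5.44 in TTF, 6.63 in VM and 5.34 to 5.81 on the pluripotent arrays, and did not set TTF apart.

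Cd36, the fatty acid translocase, read 11.90 in VM, 3.66 in TTF and 3.05 to 3.34 on the pluripotent arrays. Its other probe sets gave the same picture, with VM at 11.86 and 8.85 and all other arrays at 3.41 or lower. Lpl, lipoprotein lipase, was at 13.45 in VM and 8.53 in TTF, so that a fibroblast level stood between VM and the pluripotent cells. The Lpl arrays read 6.63, 6.37 and 6.49 in ViPSC, 6.85, 6.82 and 6.83 in TiPSC, and 5.74, 7.16 and 7.29 in ESC. ESC 1 was the lowest of the 9 arrays and the other ESC arrays were the highest, so the ESC group spanned both induced groups.

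Some genes of the proteins that work with lipoprotein lipase and CD36 were higher in VM. Of 14 measured genes of lipase partners and fat storage, 4 exceeded TTF by 2 units or more in VM, and 1 was lower by as much. Gpihbp1, which tethers the lipase to the capillary wall, was at 9.96 in VM and 3.95 in TTF. Plin5, a lipid droplet protein of oxidative tissues, was at 8.95 and 4.88, and Pnpla2, which starts triglyceride breakdown in cells, at 9.57 and 6.21. The lipoprotein receptor gene Lrp1 was the lower one, at 7.14 in VM and 11.77 in TTF. Of 12 measured genes of fatty acid uptake and activation, 1 was raised, Fabp4, the binding protein of adipocytes and capillary endothelium, at 13.56 in VM and 9.09 in TTF. Cd36, Lpl, Gpihbp1 and Fabp4 are also known from endothelium, adipocytes or macrophages. Endothelial markers had a median of 9.94 in VM and 4.18 in TTF, and macrophage markers 5.52 and 6.09, with 0 of 10 raised. The part of endothelial cells in these VM levels was not tested.

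The stretches of 130 bases before the transcription start of Ckm, Ckb and Fabp3 are shown because Ckm was high in VM alone while Ckb and Fabp3 were high in the pluripotent cells too. They come from RefSeq on GRCm38.p6, at chr7:19410964-19411093 on the plus strand, chr12:111672339-111672468 on the minus strand and chr4:130308608-130308737 on the plus strand, are written 5′ to 3′ and have each CpG in capitals.
Ckm: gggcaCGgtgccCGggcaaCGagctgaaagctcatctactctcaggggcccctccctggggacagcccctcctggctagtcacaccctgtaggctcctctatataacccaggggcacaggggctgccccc
Ckb: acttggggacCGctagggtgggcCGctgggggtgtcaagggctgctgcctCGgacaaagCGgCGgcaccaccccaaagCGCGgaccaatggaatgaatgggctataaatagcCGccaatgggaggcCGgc
Fabp3: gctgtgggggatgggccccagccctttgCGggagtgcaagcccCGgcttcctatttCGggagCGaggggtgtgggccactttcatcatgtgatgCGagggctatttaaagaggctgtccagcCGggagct
Ckb has 9 CpGs in this stretch, Fabp3 6 and Ckm 3. In the 250 bases before the start, Esrra had 22 CpGs, Fabp3 17, Ckb 16, Ckm 6, Ppargc1a 5, Cd36 3, Ckmt2 2, Pgam2 1 and the starts of Mb 8, 1 and 2. The median over 32851 promoter windows was 6, and 25.4% of them had at least 16. The table held 9 of the 10 genes and not Lpl. These counts describe sequence and no measurement of methylation was made.

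Pgam2, the muscle-type phosphoglycerate mutase of glycolysis, was high in VM and unequal among the pluripotent cells. It was at 12.69 in VM and 6.09 in TTF, a difference of 6.60. It read 7.14, 7.12 and 7.13 in ViPSC, 6.0, 6.07 and 6.34 in TiPSC, and 6.31, 6.25 and 6.82 in ESC. The 3 ViPSC arrays lay above all other pluripotent arrays and above TTF, and TiPSC and ESC overlapped.

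The 130 bases before the Pgam2 start (RefSeq, GRCm38.p6, chr11:5803797-5803926, minus strand, 5′ to 3′) are shown since it was the only one of the 9 genes with a promoter entry whose 250-base window held matches to 2 of the 3 muscle-type motifs searched (the E-box CAGCTG, the MEF2 site and the CArG box), which are in capitals.
Pgam2: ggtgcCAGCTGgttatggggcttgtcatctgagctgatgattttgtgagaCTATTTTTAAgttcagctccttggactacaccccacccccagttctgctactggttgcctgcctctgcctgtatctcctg
The first is the E-box CAGCTG at -125 to -120 and the second a match to the MEF2 site at -80 to -71, counted from the start, with both strands searched. CAGCTG occurred in windows of 4 of the 9 genes (Mb, Ckm, Ckmt2 and Pgam2) and in 13.0% of all windows. The MEF2 site matched in 2 of 9, Pgam2 and Ckb, and in 2.92% of all windows. The match of Ckb, at -29 to -20, overlaps the only TATAAA of the set, a motif found in 12.4% of windows. The nuclear receptor motif AGGTCA was in windows of 2 genes, Mb and Cd36, and in 14.0% of all windows, and neither its extended form TCAAGGTCA (0.387% of windows) nor the CArG box (1.47%) matched in any. A match is a run of letters and not a measured binding site.

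Among the genes that supply glucose and glycogen as fuel, some muscle forms were raised in VM with Pgam2 and others were not. Of 22 measured genes of glucose and glycogen supply, 7 exceeded TTF by 2 units or more in VM, and 2 were lower by as much. The highest differences were those of Pdk4, which restrains pyruvate oxidation (12.89 in VM, 5.97 in TTF), Pygm, the muscle glycogen phosphorylase (10.99 and 4.33), and Eno3, the muscle enolase (13.57 and 7.07). The lower ones were Pgam1, the widespread mutase (9.87 and 12.55), and Pfkl, the liver-type phosphofructokinase (7.65 and 9.80). The pluripotent means of Pgam1 were 12.47 to 12.62, near TTF, so Pgam1 and Pgam2 ran opposite between VM and the other cells. Other enzymes known from muscle were not raised by 2 units: the glycogen synthase Gys1 was at 8.86 in VM and 9.64 in TTF, Ldha at 12.87 and 13.54, and the phosphorylase kinase subunits Phka1 at 6.54 and 6.71 and Phkg1 at 3.60 and 3.21.

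**Figure D2:**
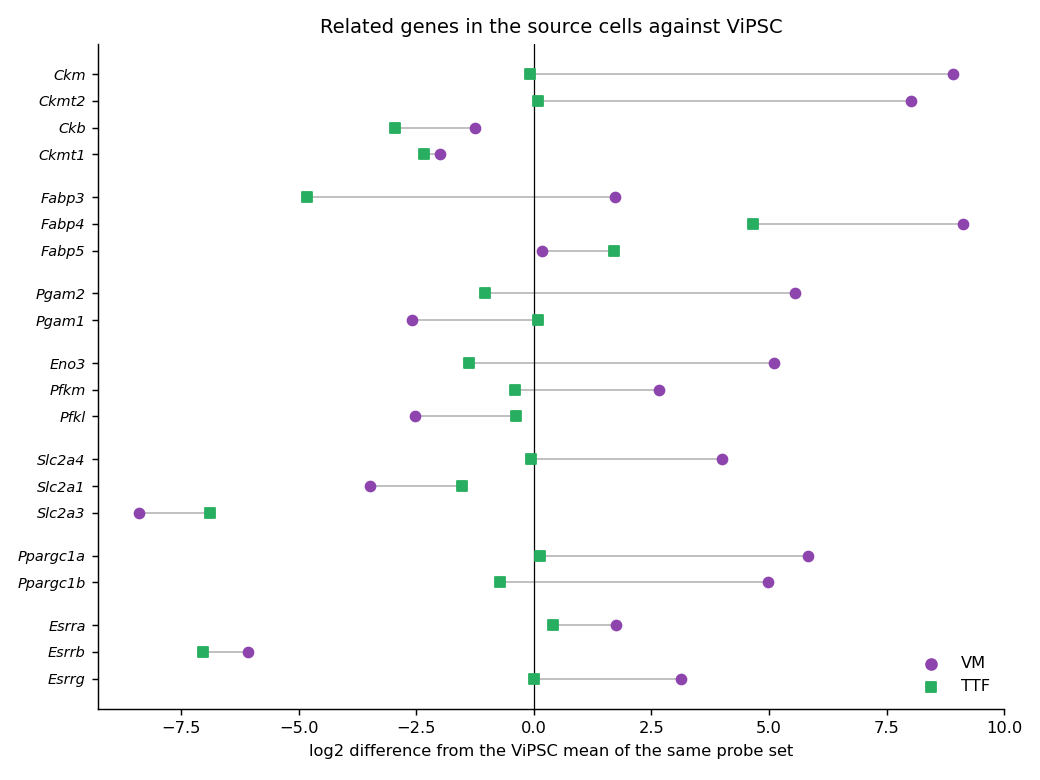
Log2 difference of VM (circles) and TTF (squares) from the ViPSC mean of the same probe set (horizontal axis), for genes of the set and their relatives, grouped by family; each source cell is 1 array. Ckm, Ckmt2, Fabp4, Pgam2, Eno3, Slc2a4 and Ppargc1a have VM to the right of 0, and Ckb, Ckmt1, Pgam1, Pfkl, Slc2a1 and Slc2a3 have VM to the left.

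Ppargc1a was at 9.33 in VM, 3.63 in TTF and 3.34 to 3.76 on the pluripotent arrays, a difference of 5.71 between the source cells. Its other 4 probe sets read 6.28 to 7.04 in VM and at most 3.66 elsewhere, so all 5 placed VM alone above the rest. Esrra had the narrowest span of the set, with 8.08 in VM, 6.74 in TTF and 6.30 to 6.58 on the pluripotent arrays, a difference of 1.34 between VM and TTF. Its second probe set, 1442864_at, separated VM from TTF less, at 5.36 and 5.09.

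Of the 23 genes of the PGC-1 and ERR network, 7 exceeded TTF by 2 units or more in VM, and 0 were lower by as much. The highest differences were those of Ppargc1b, the second coactivator of the family (9.85 in VM, 4.16 in TTF), Prkaa2, a catalytic subunit of AMP-activated kinase (9.24 and 4.08), and Perm1, a muscle regulator induced by the coactivators (8.95 and 3.91). The receptors related to Esrra divided by cell type: Esrrg read 6.39 in VM against 3.26 in TTF, and Esrrb, which also belongs to the pluripotency network, was at 10.62 to 10.68 in the pluripotent means, 4.55 in VM and 3.59 in TTF. Over all 6 lists, 20 of 84 measured genes, or 23.8%, exceeded TTF by 2 units or more in VM, beside 4.68% of all genes. Lower by as much were 4, or 4.76%, beside 4.62% of all genes.

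**Figure D3:**
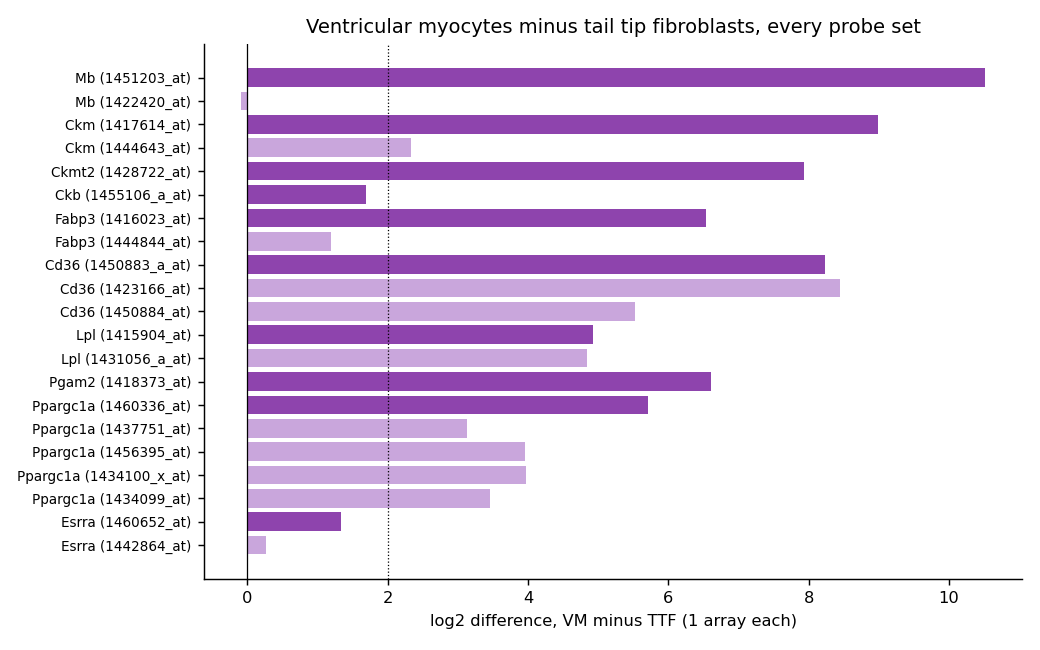
Log2 difference between VM and TTF (horizontal axis, 1 array each) for all 21 probe sets, 1 bar each, with the probe set that stands for its gene in dark and a dotted line at 2. Of the 21 bars, 16 reach 2, and the second Mb probe set is at -0.09.

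Against ViPSC, the cells derived from them, VM was at least 2 units above all 3 arrays for 7 of the 10 genes, beside 6.76% of all genes, and at least 2 units below for 0, beside 6.44%. The 7 genes were Mb, Ckm, Ckmt2, Cd36, Lpl, Pgam2 and Ppargc1a, and their VM levels exceeded the ViPSC means by 5.56 for Pgam2 to 9.43 for Mb. TTF was at least 2 units above all 3 TiPSC arrays for 0 of the 10 genes, beside 6.01% of all genes. It was at least 2 units below for 2, Ckb and Fabp3, beside 4.51%. Lpl was the gene of the set with the largest excess of TTF over the TiPSC mean, 1.69. The differences of VM from TTF and from ViPSC share the VM array.

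Between the induced cells of both origins, Pgam2 was the gene of the set that changed. It was 0.99 ± 0.15 (SE) log2 units higher in ViPSC than in TiPSC, or 1.99-fold (limma, Benjamini-Hochberg adjusted p = 0.00898, 95% interval 0.65 to 1.33). Thus 1 of the 10 genes passed at an adjusted p under 0.05, beside 5.63% of all genes (3.2% higher in ViPSC), and 2 had an unadjusted p under 0.05. Mb, at 5.56 ± 0.16 (SD, n = 3) in ViPSC and 5.12 ± 0.19 in TiPSC, differed by 0.44 ± 0.12 and did not pass (limma adjusted p = 0.0642). It passed in 3 of 18 alternatives: with the 6 induced arrays alone (limma adjusted p = 0.0491), with array weights (0.0225) and without ESC 1 (0.0475). With the mean of all Mb probe sets the difference was 0.10 (limma adjusted p = 0.598), and the second probe set gave -0.24 (adjusted p = 0.355). That second probe set read 4.22 in VM, where the other read 15.00. It cannot decide whether Mb differed, and the mean includes it. The groups did not overlap for 3 genes, Mb, Lpl and Pgam2, beside 33.5% of all genes. An exact permutation test of 3 arrays against 3 cannot give a two-sided p below 0.1, and it gave 0.1 for these 3 genes.

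The remaining genes did not pass, and their intervals held 0. The 95% interval of ViPSC minus TiPSC was -0.05 to 0.64 for Fabp3, -0.19 to 0.76 for Ckb and -1.10 to 0.42 for Lpl. It was -0.32 to 0.26 for Ckm, -0.32 to 0.11 for Ckmt2 and -0.22 to 0.25 for Cd36. For Ppargc1a it was -0.39 to 0.16 and for Esrra -0.30 to 0.08. The median difference of the 10 genes was -0.01, beside -0.03 over all genes. The Lpl interval uses a spread shared with ESC. With the 6 induced arrays alone its difference of -0.34 had a limma adjusted p of 0.0361, and without ESC 1 it had 0.0410.

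Pgam2 lies on chromosome 11, and the genes of that chromosome moved with it. Over 644 of its genes with a mean level of at least 7, the median shift from the mean of the 9 arrays was 0.26, 0.27 and 0.27 in ViPSC and -0.20 in each TiPSC array. In ESC it was -0.17, -0.20 and 0.19. The ESC array with the positive shift, ESC 3, was also the ESC array with the highest Pgam2. Of the 1443 genes of the chromosome, 247 (17.1%) were called higher in ViPSC than in TiPSC, and the Pgam2 difference exceeded that of 96.6% of them. After the median difference of the chromosome was taken off, 0.55 remained. The part of the chromosome in the Pgam2 difference was not tested further.

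**Figure D4:**
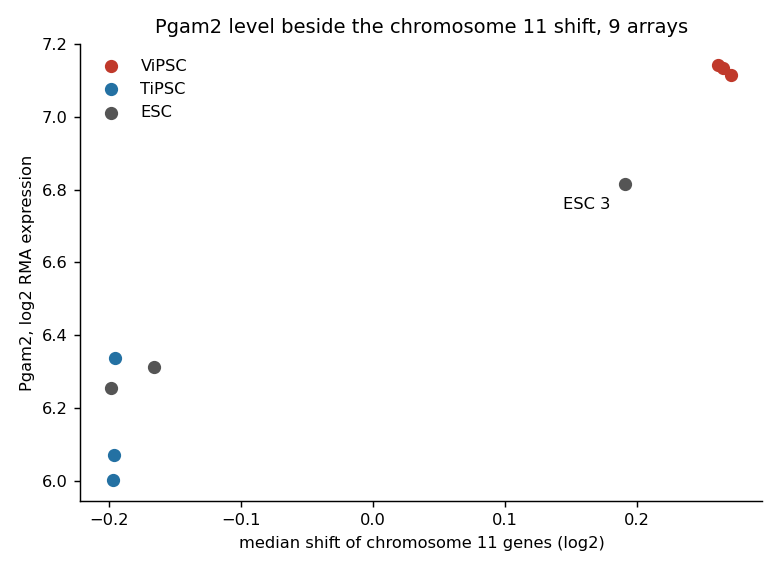
Log2 RMA expression of Pgam2 (vertical axis) beside the median shift of the 644 chromosome 11 genes (horizontal axis), 1 point for each of the 9 pluripotent arrays. The 3 ViPSC arrays are at the upper right, ESC 3 is next to them at 6.82, and the other 5 arrays are at 6.0 to 6.34 with shifts of -0.20 to -0.17.

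Some genes from the marker lists of other cells differed between the induced cells as well. Over 10 fibroblast and feeder markers, 0 were called between ViPSC and TiPSC, with medians of 6.19 to 6.31 on the ViPSC arrays and 6.49 to 7.18 on the TiPSC arrays. The log2 of the summed level of that list was 12.17 to 12.19 and 11.94 to 12.79, that of the endothelial list 9.93 to 9.95 and 9.20 to 9.42, and that of the macrophage list 9.65 to 9.79 and 8.98 to 9.09. The endothelial markers Pecam1 (1.33 higher in ViPSC) and Cldn5 (1.03) were called, 2 of 10. So were the macrophage markers Csf1r (1.54) and Cd68 (1.37), 2 of 10, beside 5.63% of all genes. Over each whole list, the median of ViPSC minus TiPSC was 0.005 for the macrophage markers and 0.59 for the endothelial markers. Among the macrophage markers Lyz2 was at -0.38, and Ptprc was low in both groups, at 3.69 and 3.58. Pecam1 and Cd68 are on chromosome 11 too, and their ESC means were 7.73 and 7.67, against 4.11 and 5.94 in TTF. Cdh5, the defining endothelial cadherin, was at 3.81 in ViPSC and 3.73 in TiPSC. The part of these markers in the differences of Mb, Lpl and Pgam2 was not tested.

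Of the 84 related genes measured, 5 were called higher in ViPSC than in TiPSC and 0 lower, that is 5.95%, beside 5.63% of all genes. Ak4 read 12.56, 12.67 and 12.40 in ViPSC and 11.24, 11.11 and 11.06 in TiPSC, 1.41 ± 0.15 higher (limma adjusted p = 0.00197). Pygl, the liver-type glycogen phosphorylase, read 7.33, 7.62 and 7.27 in ViPSC and 6.21, 6.06 and 6.16 in TiPSC, 1.26 ± 0.11 higher (adjusted p = 0.000879). In both genes all ViPSC arrays were above all TiPSC arrays, and both calls held in all 19 alternative analyses. The other calls were Phka1, a subunit of phosphorylase kinase (0.997 higher), Mef2d, a partner of the coactivators (0.54), and Slc27a4, a fatty acid transporter (0.40). They were lost in 8, 6 and 8 of 19 alternatives, including the fits without any 1 of the ViPSC arrays.

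Against ESC, Mb was the gene of the set that passed in ViPSC. It was 5.56 ± 0.16 in ViPSC and 5.00 ± 0.08 (SD, n = 3) in ESC, 0.57 ± 0.12 higher or 1.48-fold (limma adjusted p = 0.0478, 95% interval 0.30 to 0.83). Thus 1 of the 10 genes was called, beside 2.14% of all genes (1.45% higher in ViPSC), and 2 had an unadjusted p under 0.05. The Mb call held in 4 of 18 alternatives, with adjusted p-values of 0.00816 to 0.197 and differences of 0.28 to 0.63. It was lost without any 1 ViPSC array, without TiPSC 1, TiPSC 2, ESC 2 or ESC 3, and with both rescalings of the arrays. The difference is also small beside the distance of the ViPSC mean from VM, 9.43. Of the 4 alternatives that kept the call, 1 took the probe set highest on the 9 pluripotent arrays, which for Mb is the same probe set. The second Mb probe set gave -0.01 for ViPSC minus ESC (limma adjusted p = 0.976). As it did not see the high VM level, it cannot decide whether Mb differed. The mean of all probe sets, which gave 0.28, includes it.

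Pgam2 was 0.67 ± 0.15 higher in ViPSC than in ESC and did not pass (limma adjusted p = 0.0610, 95% interval 0.33 to 1.01). Without ESC 3 the difference was 0.85 with an adjusted p of 0.0110, and without ESC 1 the adjusted p was 0.0423. With the chromosome 11 median taken off, 0.30 remained. ViPSC and ESC did not overlap for Mb, Pgam2 and Esrra, beside 22.2% of all genes. The Esrra groups, at 6.33 ± 0.03 and 6.42 ± 0.0049, differed by -0.10 with an interval of -0.29 to 0.09. The comparisons of ViPSC with TiPSC and with ESC share the ViPSC arrays.

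Between TiPSC and ESC, 0 of the 10 genes were called by limma, beside 0.632% of all genes (0.291% higher in TiPSC), and 0 had an unadjusted p under 0.05. The 95% interval was -0.92 to 0.04 for Ckb, -0.66 to 0.02 for Pgam2 and -0.66 to 0.86 for Lpl. Lpl and Ckb turned on ESC 1: without that array TiPSC minus ESC was -0.70 for Ckb (limma adjusted p = 0.0114), against -0.44 with all arrays. For Lpl it was -0.39 (adjusted p = 0.0269), against 0.10 with all arrays. ViPSC minus ESC was likewise -0.73 for Lpl without ESC 1 (adjusted p = 0.00191), against -0.23 with all arrays. Lpl lies on chromosome 8, whose 422 genes had a median shift of 0.45 on TiPSC 3 and -0.09 to -0.01 on the other arrays. On TiPSC 3 Lpl read 6.83, between the values of TiPSC 1 and 2. With the chromosome 8 median taken off, ViPSC minus TiPSC of Lpl was -0.11, against -0.34 before. Without TiPSC 3, and with no median taken off, that difference was also -0.34. The part of the chromosome in the Lpl difference was not tested.

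**Figure D5:**
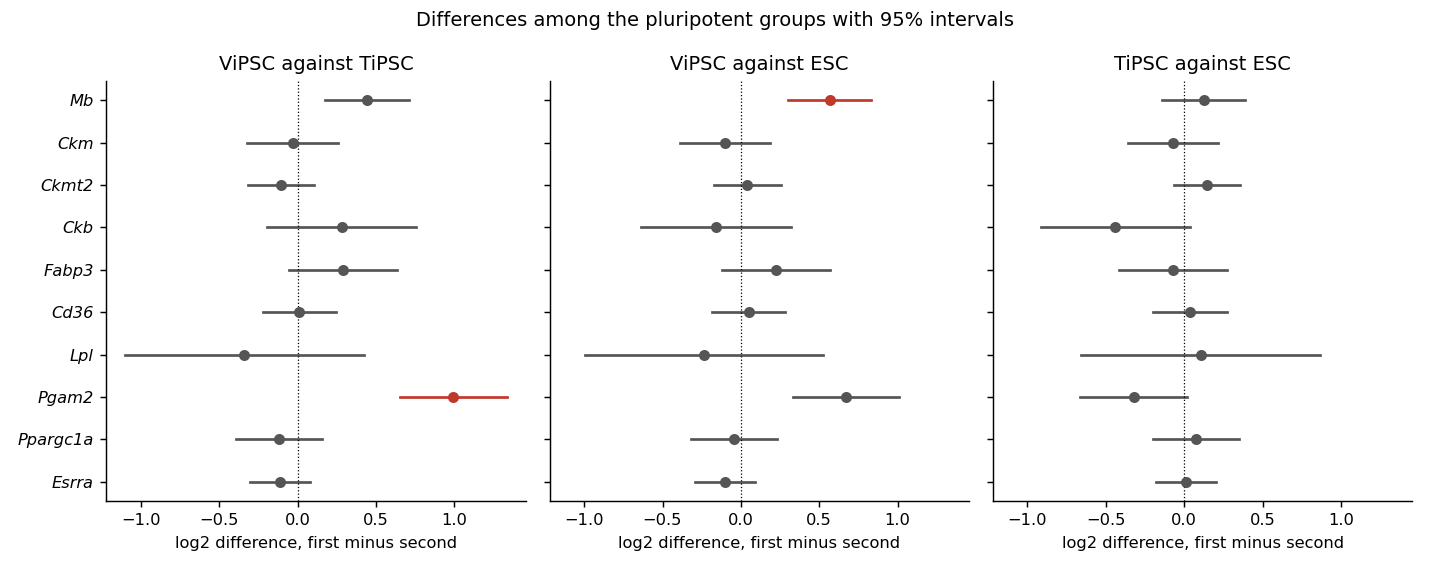
Log2 differences of the 10 genes among ViPSC, TiPSC and ESC (horizontal axes, first group minus second) with 95% intervals from limma, 3 arrays per group; red marks an adjusted p under 0.05. Pgam2 in ViPSC against TiPSC (0.99) and Mb in ViPSC against ESC (0.57) are marked.

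Of the 84 related genes, 3 were called higher in ViPSC than in ESC and 0 lower, that is 3.57%, beside 2.14% of all genes (1.45% higher in ViPSC). Eno3 read 8.44, 8.47 and 8.46 in ViPSC and 7.68, 6.83 and 6.99 in ESC, 1.29 ± 0.20 higher (limma adjusted p = 0.0186), and TiPSC lay between, at 7.81, 7.93 and 8.16. Eno3, like Pgam2, is a muscle enzyme of lower glycolysis on chromosome 11. The median difference of chromosome 11 genes between ViPSC and ESC was 0.37. On ESC 3, where that chromosome was shifted up, Eno3 was at 6.99. The part of the chromosome in the Eno3 difference was not tested. Ak4 (1.05 higher) and Mef2d (0.54) were the other calls, and the Eno3, Ak4 and Mef2d calls were lost in 6, 5 and 9 of 19 alternatives. Between TiPSC and ESC, 2 genes were called lower and 0 higher, that is 2.38%, beside 0.632% of all genes. They were Pygl, at -0.81 ± 0.11 (limma adjusted p = 0.0206) and Angptl4, an inhibitor of lipoprotein lipase, at -0.81 ± 0.14 (adjusted p = 0.0450). The Angptl4 call was lost in 12 of 19 alternatives and the Pygl call in 6.

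The genes with profiles most like those of the set, by the root mean square difference between the 5 group levels centred on their mean, were drawn from all 18193 genes. For Ckm they were Cox8b (0.058), Csrp3 (0.070) and Mybpc3 (0.13), and for Mb they were Smpx (0.28), Tnni1 (0.31) and Tnni3 (0.31). For Ckmt2 they were Cdh5 (0.088), Nebl (0.14) and Unc45b (0.15), and for Cd36 they were Cd93 (0.13), Nppa (0.21) and Ckm itself (0.26). Genes of muscle fibres and of endothelium stood together in these lists. Lpl had Sparcl1 (0.20), Ramp1 (0.26) and Dnaja4 (0.26), and Pgam2 had Rsad2 (0.23), Mmrn2 (0.23) and Kdr (0.25). Ppargc1a had Alas2 (0.045), Popdc2 (0.050) and Sprr1a (0.083), and Esrra had Cox6b1 (0.020), Zbtb42 (0.039) and Mcpt4 (0.055). The genes nearest to Ckb were Tmem191c (0.090), Tex30 (0.14) and Znrf2 (0.14), and those nearest to Fabp3 were Tspan13 (0.31), Podxl (0.35) and Lrrc2 (0.38). With 5 levels and 1 array for each source cell, these are descriptions of likeness and no test.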

How the data were processed

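Total RNA of 11 samples was measured on Affymetrix mouse arrays. The deposited table holds log2 expression, computed by the authors with RMA, per the submitters' processing notes. Its version is not given in the sources used here, and RMA narrows differences near background. Array numbers limit the precision. From 45101 probe sets, 64 controls, 932 with several symbols and 9160 without one were left out of the gene analysis. Each of 18193 genes was represented by its probe set of highest average level on all 11 arrays. Chromosomes came from RefSeq on GRCm38.p6, which placed 18028 genes.

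ViPSC, TiPSC and ESC were compared with limma 3.58.1 in R 4.3.3 over 9 arrays, with 1 mean per group, two-sided moderated tests and Benjamini-Hochberg adjustment over all genes at 0.05. VM and TTF were described by differences of at least 2 log2 units. Alternatives changed the probe set, a filter on dim genes, the arrays fitted, array weights, the variance model, the scaling and the replicate block, and left out each array in turn.

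The 10 genes and the lists (93 genes of 6 pathways, 9 marker lists) were chosen with earlier results of these data known. The text names the 10 genes, at most 4 called genes per list and comparison, at most 3 highest and 2 lowest genes per list between VM and TTF past 2 units, and the 3 nearest profiles per gene. Genes outside this rule, such as Ckmt1, Slc6a8, Gys1, Ldha, Phkg1, Esrrb, Esrrg and the globins, were named for their family after their values were seen. Of the 93 listed pathway genes, 84 were analysed here.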

Additional observations from a re-analysis of the deposited data

Results flagged for a closer look

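For Mb, all 3 ViPSC arrays were below the cells they came from and all 3 TiPSC arrays above theirs: the ViPSC mean minus VM was -9.43 and the TiPSC mean minus TTF was 0.64. Fabp3 had the same pattern, with a ViPSC mean minus VM of -1.72 and a TiPSC mean minus TTF of 4.52. In both genes the source cells lie on either side of the pluripotent arrays. With 1 array for each source, the difference between the changes of both lines was not tested.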

How the results depend on the processing

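The Pgam2 call between ViPSC and TiPSC held in all 19 alternatives, with limma adjusted p-values of 0.000174 to 0.04997 and differences of 0.93 to 1.09. Pgam2 has only 1 probe set, so the alternatives that change the probe set kept its difference of 0.99 and could hardly move the call. Taking off the chromosome 11 median, which is not among the 19, left 0.55. For ViPSC against TiPSC, 1024 genes were called. This became 1635 with every probe set tested, 2621 with the 6 compared arrays alone, 3613 with array weights, 623 with the replicate block and 207 to 1994 with 1 array left out. Called genes of the set numbered 3 with the 6 arrays alone, 2 with array weights and 1 to 3 with 1 array left out. For ViPSC against ESC, 390 genes became 73, 3453, 103 and 22 to 2519 with the 6 arrays alone, array weights, the replicate block and 1 array left out. Called genes of the set became 0 with the mean of all probe sets, every probe set, the 6 arrays alone, the intensity trend with robust eBayes, centred arrays, quantile normalization and the replicate block, 2 with array weights and 0 to 3 with 1 array left out. For TiPSC against ESC, 115 genes became 65 with the mean of all probe sets, 1 with the 6 arrays alone, 2913 with array weights, 9 with the replicate block and 12 to 3038 with 1 array left out, and 0 to 2 genes of the set were then called. The 2519 and 3038 came without ESC 1, as did 1994. Deviations of same-numbered arrays correlated at -0.125 to 0.118 between groups. These values gave no sign of pairing by number but cannot exclude it, and the labels give no shared source. The block lost the Mb call and left the Pgam2 call.

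Small differences changed sign. In ViPSC minus ESC, Ckmt2 was -0.049 with array weights and -0.0037 with centred arrays. In TiPSC minus ESC, the mean of all probe sets gave -0.020 for Cd36, -0.023 for Lpl and -0.050 for Esrra. Array weights gave 0.011 for Ckm, -0.19 for Lpl and -0.048 for Ppargc1a there. Centring gave -0.0028 for Cd36 and -0.030 for Esrra, and quantile normalization -0.040 for Esrra. With 1 array left out, ViPSC minus TiPSC ran from -0.13 to 0.055 for Ckm and -0.074 to 0.072 for Cd36. ViPSC minus ESC ran from -0.024 to 0.11 for Ckmt2, -0.0033 to 0.13 for Cd36, -0.42 to 0.018 for Ckb and -0.73 to 0.047 for Lpl. TiPSC minus ESC ran from -0.060 to 0.074 for Esrra, -0.21 to 0.072 for Fabp3, -0.022 to 0.12 for Cd36, -0.39 to 0.39 for Lpl and -0.16 to 0.026 for Ckm. The second Mb probe set gave -0.091 for VM minus TTF and -0.16 for VM minus the ViPSC mean. The cause was not tested. The count of 8 genes raised in VM over TTF was within 1.5 times under each alternative. The filter on dim genes gave no value for Mb, Ckm, Ckmt2, Cd36 and Ppargc1a. Low signal in pluripotent cells limits what can be seen for these 5 genes.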

Other observations

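The glucose transporters divided by cell type, as values chosen after they were seen. Slc2a3, the high-affinity transporter, had means of 13.75 to 13.88 in the pluripotent groups, 6.87 in TTF and 5.37 in VM. Slc2a1, the widespread transporter, had means of 12.91 to 13.23, with 11.71 in TTF and 9.74 in VM, while Slc2a4, the insulin-responsive transporter, was at 5.04 to 5.39, 4.99 and 9.04. Ldhb, the heart-type lactate dehydrogenase subunit, was like Fabp3 highest in VM and lowest in TTF, with 13.27 in VM, 12.03 to 12.80 in the pluripotent groups and 8.63 in TTF. Ldha, the muscle-type subunit, spanned 12.87 in VM to 13.54 in TTF.

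Single genes of other marker lists were high where their lists were not. Mylpf, a fast skeletal muscle light chain, had means of 11.37 in ViPSC, 11.30 in TiPSC and 11.18 in ESC, against 5.52 in TTF and 5.96 in VM. Cidea, a lipid droplet protein of brown fat, was at 9.39 in VM and 7.004, 6.11 and 6.97 in ViPSC, TiPSC and ESC, against 3.69 in TTF, while Ucp1 was at 3.19 to 3.41 in all groups.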
